A study of Mus musculus with 2 samples.

Results

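Kit, Mitf, Hes1, Id2, Ahr and Scin were followed through E-cadherin+ cells of mouse bone marrow. These 6 genes are 6 of the 31053 gene rows that both count matrices share, and each symbol named 1 row. They were selected on their measured levels in these same cells, which were known by sort, by cluster and by detection of the granzyme B transcript Gzmb, so every level below is a description. The cells came from FVB mice and had been sorted on the surface proteins E-cadherin and cKIT into an E-cadherin+cKIT+ and an E-cadherin+cKIT- population, with no treatment named. The labels give no age. The study's own account, which names wild-type and Vav-iCre;mTmG mice, has the cells sorted from several mice and does not say how these were shared between the sorts. Each population was sequenced as 1 library of 10x 3′ single-cell RNA, in which a unique molecular identifier (UMI) marks every captured molecule. After filtering, 6479 E-cadherin+cKIT+ cells (the cKIT+ library) and 3662 E-cadherin+cKIT- cells (the cKIT- library) remained. The libraries held 95477153 UMIs in 6632 cells and 24033994 UMIs in 3745 cells before filtering, and shared 10 cell barcodes. Cdh1, which encodes E-cadherin, had a UMI in 44.5% of kept cKIT+ and 62.0% of kept cKIT- cells. A level is given as CPM, the UMIs of a gene scaled to a total of 1000000 UMIs over the cells summed. All intervals are 95% intervals and cover counting error only, exact Poisson for levels and exact binomial for ratios and shares. With 1 library per sort there is no replicate, and no difference was tested.

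Kit encodes cKIT, the receptor tyrosine kinase for stem cell factor, which early blood progenitors carry and mast cells keep for life while maturing basophils lose it. Mitf encodes a basic helix-loop-helix leucine zipper factor of the MiT family that mast cells need. Hes1 encodes a repressor best known as a target of Notch signalling, and Id2 an inhibitor that binds E proteins and keeps them off DNA. Ahr encodes the aryl hydrocarbon receptor, a transcription factor activated by ligands, and Scin encodes scinderin, a calcium-dependent actin-severing protein of the gelsolin family. Basophils and mast cells arise from closely related marrow progenitors, and Gzmb, the mast chymase gene Cma1 and the basophil protease gene Mcpt8 help to tell their precursors apart.

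In GRCm38, the mm10 build, Kit lies on chromosome 5 (75574916 to 75656722, plus strand), Mitf on chromosome 6 (97807052 to 98021349, plus strand) and Hes1 on chromosome 16 (30064384 to 30067796, plus strand). The 3 other members lie on the minus strand of chromosome 12, Id2 from 25093799 to 25097140, Ahr from 35497974 to 35535038 and Scin from 40059769 to 40134228. RefSeq promoter windows, 250 bases before to 50 after a start site, were at hand for 4 of the 6 members, with 3 start sites for Mitf. Short motifs of factors in this group were searched on both strands. The core GCGTG, bound by AHR with its partner ARNT, stood once in the window of Kit and once in that of Scin, and in 32.4% of all 32851 windows. Of the GATA motifs AGATAA and TGATAA, the latter stood once at the second and once at the third Mitf start, and 18.6% of all windows held either. The MiT family E-boxes CACGTG and CATGTG (20.4% of all windows) and the RBPJ motif TGGGAA (25.6%) had no match in these windows of Kit, Mitf, Id2 or Scin. A match describes letters and not a bound site. The sequences of the matching windows that lie before the start site and outside annotated exons follow for Kit and Scin, and for the third Mitf start as the example with a GATA motif, 5′ to 3′ on the strand of the gene, with the motif in capitals.
Kit, chr5:75574737-75574915, plus strand: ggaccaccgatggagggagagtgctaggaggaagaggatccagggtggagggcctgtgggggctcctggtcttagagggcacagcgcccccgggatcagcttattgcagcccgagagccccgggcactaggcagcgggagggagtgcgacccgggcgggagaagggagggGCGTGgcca
Scin, chr12:40134229-40134478, minus strand: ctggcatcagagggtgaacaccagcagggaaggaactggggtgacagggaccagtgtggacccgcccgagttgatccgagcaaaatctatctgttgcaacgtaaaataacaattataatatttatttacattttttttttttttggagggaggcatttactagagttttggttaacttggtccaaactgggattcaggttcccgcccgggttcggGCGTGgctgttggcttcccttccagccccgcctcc
Mitf, the third start, chr6:97991533-97991782, plus strand: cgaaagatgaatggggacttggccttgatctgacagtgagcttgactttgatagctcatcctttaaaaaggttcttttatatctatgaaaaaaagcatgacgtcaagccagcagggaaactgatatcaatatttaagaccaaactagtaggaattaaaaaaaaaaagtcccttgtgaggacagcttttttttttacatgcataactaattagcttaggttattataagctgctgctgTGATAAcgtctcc
The libraries were counted from the 3′ end, so the UMIs of Mitf do not tell its start sites apart.

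Sorting for cKIT separated the members unevenly. Kit itself, on whose protein the cells had been sorted, had 37.1 CPM (35.9 to 38.4) in the cKIT+ library and 0.875 CPM (0.534 to 1.35) in the cKIT- library, from 3382 and 20 UMIs. The nuclear factors Mitf, Hes1 and Ahr were sparse and higher in the cKIT+ library. Mitf had 6.11 CPM (5.62 to 6.64) against 1.36 CPM (0.921 to 1.92), a ratio of 4.51 (3.14 to 6.70). Hes1 had 4.14 CPM (3.73 to 4.58) against 0.700 CPM (0.400 to 1.14), a ratio of 5.91 (3.59 to 10.5). Ahr had 6.04 CPM (5.54 to 6.56) against 0.918 CPM (0.568 to 1.40), a ratio of 6.57 (4.26 to 10.7). All 3 rested on 31 or fewer UMIs in the cKIT- library. Of its 16 Hes1 UMIs, 14 came from 228 B cell-like cells. Of its 31 Mitf and 21 Ahr UMIs, 10 each came from 48 monocyte-like cells. Scin had 168 CPM (165 to 170) against 45.8 CPM (43.1 to 48.7), a ratio of 3.66 (3.44 to 3.90). Id2 went the other way, with 51.7 CPM (50.2 to 53.1) in the cKIT+ and 71.7 CPM (68.3 to 75.3) in the cKIT- library, 1.39 times higher in the latter (1.31 to 1.47). This order of Id2 depended on the scale. With each cell thinned to 2000 UMIs the Id2 ratio of cKIT+ over cKIT- was 0.985 (0.886 to 1.10), and as UMIs per cell, a scale chosen after seeing the data that keeps the deeper cells of the cKIT+ library, it was 1.62 (1.53 to 1.72).

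**Figure D1:**
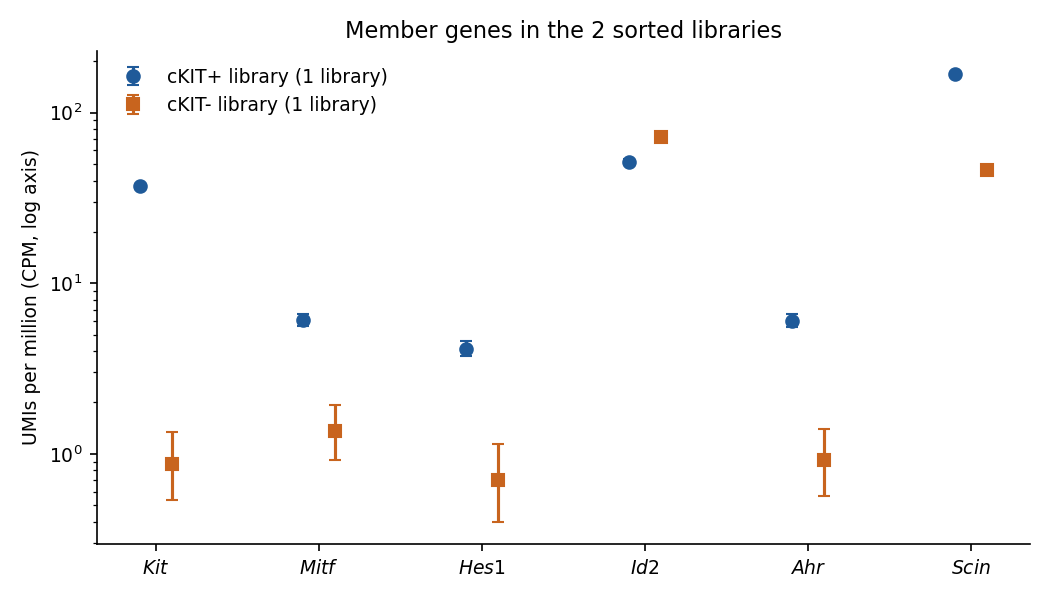
Level of each member in the 2 libraries, in CPM on a log axis, with the 95% exact Poisson interval of each point. Kit lies at 37.1 CPM in the cKIT+ library and 0.875 CPM in the cKIT- library, and Id2 is the member whose cKIT- point lies above its cKIT+ point.

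A difference of at least 2-fold among genes with at least 10 CPM in 1 of the groups compared was used as the mark of a large difference. Between the libraries, 8023 genes reached that minimum, of which 7.30% were at least 2-fold higher and 9.06% at least 2-fold lower in the cKIT+ library. Of the members, Kit, Id2 and Scin reached the minimum, Kit and Scin were among the higher genes and none among the lower. Mitf, Hes1 and Ahr stayed under 10 CPM in both libraries and thus outside this count. A single group of 435 cells, described below, carried much of the difference of Hes1: without it, a choice made after seeing the data, the Hes1 ratio was 1.61 (0.941 to 2.92), Mitf 2.67 (1.84 to 4.0) and Ahr 3.67 (2.36 to 6.02), whereas Kit kept 35.7 (23.1 to 58.5).

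The cKIT+ library was deeper, with a median of 13039 UMIs per kept cell against 4416.5. Shares of cells were therefore compared after 2000 UMIs had been drawn from each cell, which left out 345 cKIT+ and 176 cKIT- cells. Those left out were not an even sample. An eosinophil-like cluster with high Kit, described below, had 452 cells, 434 of them cKIT+, at a median of 1882.5 UMIs. Many of its cells are thus missing here and from all classes by drawn UMIs below. In the cKIT+ library a Scin UMI was drawn in 23.1% of cells (22.1% to 24.2%), in the cKIT- library in 4.73% (4.05% to 5.49%). For Id2 these shares were 9.41% (8.69% to 10.2%) and 11.9% (10.8% to 12.996%), and for Kit 7.52% (6.87% to 8.20%) and 0.115% (0.0313% to 0.294%). Mitf, Hes1 and Ahr were each found in under 2% of cKIT+ cells, in 1.57%, 1.22% and 1.74%, against 0.316%, 0.258% and 0.143% of cKIT- cells. Over all UMIs the shares of cKIT+ cells were 52.2% for Scin, 31.7% for Kit, 27.6% for Id2, 6.65% for Ahr, 6.45% for Mitf and 3.67% for Hes1. Free RNA and doublets also enter such shares. The 68 B cell-like cells of the cKIT+ library, at a median of 3223.5 UMIs, held the basophil gene Mcpt8 at 779 CPM (697 to 867), so RNA of other cells reached this class. They had 4 Kit UMIs, or 9.33 CPM (2.54 to 23.9), and 2 Scin UMIs, or 4.66 CPM (0.565 to 16.8), although early B cell precursors can express Kit themselves. Levels of Kit and Scin within these ranges are not told apart from such RNA.

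The members were then compared within the cKIT+ library by detection of Gzmb, which encodes a serine protease of cytotoxic granules. Cells were divided by whether 1 or more Gzmb UMIs stood among their 2000 drawn UMIs, and levels were taken from the UMIs that had not been drawn, so the molecules that set the class were not counted again. Gzmb was drawn in 416 cells and not in 5718. Its own held-out level was 1598 CPM in the former and 9.72 CPM in the latter, so some cells without a drawn Gzmb UMI still carried it. Below, cells with or without Gzmb, Kit or Mcpt8 are cells with or without a drawn UMI of that gene. All 6 members were higher in the cells with Gzmb, a contrast known when they were chosen. Hes1 had 60.6 CPM in cells with and 1.04 CPM in cells without Gzmb, a ratio of 58.2 (44.7 to 76.5). Mitf had 57.7 and 3.24 CPM, a ratio of 17.8 (14.7 to 21.6), and Ahr had 50.8 and 3.37 CPM, a ratio of 15.1 (12.4 to 18.3). The sparse nuclear factors thus had the largest ratios. Id2 had 332 and 34.0 CPM, a ratio of 9.75 (9.09 to 10.5). Scin had 870 and 132 CPM, a ratio of 6.60 (6.34 to 6.88). Kit had the smallest of the 6 ratios, with 131 and 31.6 CPM, a ratio of 4.15 (3.74 to 4.59). Of 8141 genes, 6.38% were at least 2-fold higher in cells with Gzmb and 3.57% at least 2-fold lower, and 6 of 6 members were among the higher. Mitf, Hes1 and Ahr reached the 10 CPM minimum only in the cells with Gzmb, so once counted they could not be among the lower. Without the 435-cell group all 6 ratios were more than 1.5 times smaller: Kit 1.67 (1.31 to 2.10), no longer 2-fold, Scin 3.06 (2.81 to 3.34), Ahr 4.66 (2.83 to 7.30), Id2 4.94 (4.31 to 5.65), Mitf 5.62 (3.596 to 8.45) and Hes1 31.3 (19.2 to 50.5). That setting was chosen after seeing the data, and 5 members stayed past 2-fold under it. Counted from the highest ratio, Hes1 stood at rank 7, Mitf at 18, Ahr at 22, Id2 at 36, Scin at 54 and Kit at 104. Cells with Gzmb were shallower, with a median of 8972.5 UMIs against 13954.5, and depth as a part of these ratios was not tested.

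**Figure D2:**
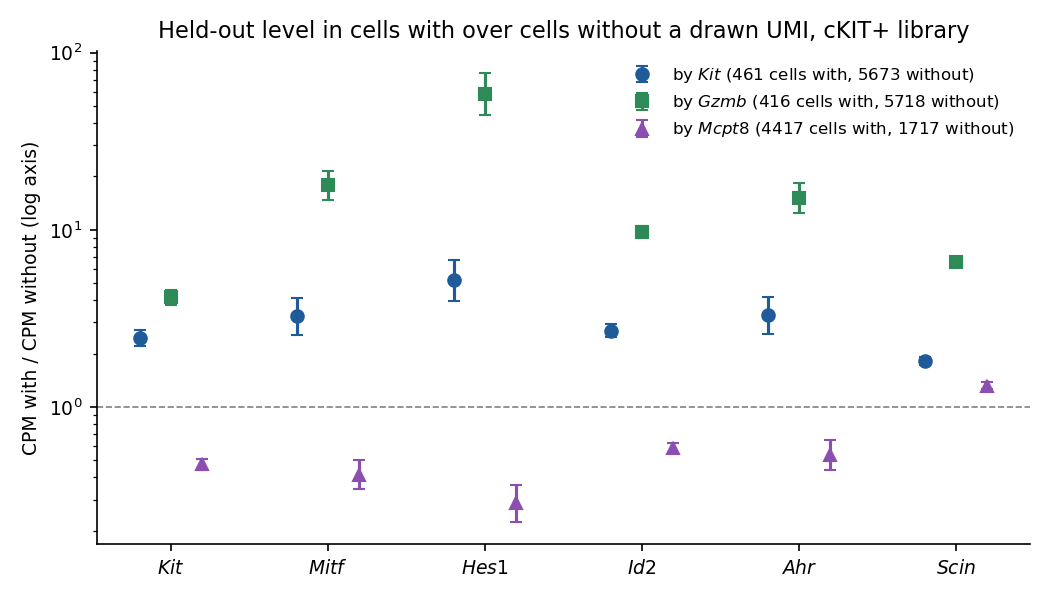
Ratio of each member's level in cells with over cells without a drawn UMI of Kit, Gzmb or Mcpt8, cKIT+ library, on a log axis with 95% intervals from the exact binomial; the dashed line marks equal levels. Ratios by Gzmb lie between 4.15 and 58.2, those by Kit between 1.82 and 5.20, and by Mcpt8 all but Scin lie under the line.

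Single cells were also counted by how many members they showed, a count that goes up with each member's own share of cells. No share expected without a link between members was computed, so joint detection beyond the single levels was not tested. Among 2000 drawn UMIs, 3 or more of the 6 members were found in 125 of 416 cells with Gzmb, or 30.05% (25.7% to 34.7%), and in 19 of 5718 cells without, or 0.332% (0.20% to 0.518%). At least 1 member was found in 89.4% of the former (86.1% to 92.2%) and 30.3% of the latter (29.1% to 31.5%). In the cKIT- library no cell of 3486 showed 3 members, which allows a share of up to 0.0861%. Levels followed the number of Gzmb UMIs drawn. With 0, 1, 2 to 4 and 5 or more Gzmb UMIs drawn, Mitf had 3.24, 22.6, 49.1 and 124 CPM. Hes1 had 1.04, 27.5, 60.3 and 113 CPM over the same classes, Ahr 3.37, 19.1, 47.4 and 105 CPM, and Id2 34.0, 143, 300 and 669 CPM. Scin had 132, 519, 906 and 1376 CPM, and Kit 31.6, 62.8, 128 and 241 CPM. Each of the 6 was thus higher in every next class, and Kit and Scin covered the narrowest range.

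With classes set by 1 or more drawn UMIs, Kit detection was a weaker divider than Gzmb detection for the 5 members other than Kit. In the 435-cell group Gzmb had 1715 CPM and Kit 171 CPM. The part of this unequal chance of being drawn in the ratios was not tested. Kit was drawn in 461 cells of the cKIT+ library and not in 5673, at median depths of 11500.0 and 13643.0 UMIs. Its own held-out level was 79.8 CPM in the former and 32.7 CPM in the latter, a ratio of 2.44 (2.20 to 2.70), so cells without a drawn Kit UMI still carried the transcript. Hes1 had 14.8 against 2.85 CPM, a ratio of 5.20 (3.97 to 6.76). Mitf had a ratio of 3.26 (2.55 to 4.13), Ahr of 3.29 (2.57 to 4.18) and Id2 of 2.69 (2.47 to 2.94). Scin had 283 against 156 CPM, a ratio of 1.82 (1.72 to 1.92). Of 7794 genes, 0.411% were at least 2-fold higher and 0.436% at least 2-fold lower in cells with Kit. The 5 members other than Scin were among the 32 higher genes, and these include Kit, the gene that set the classes. Mitf, Hes1 and Ahr reached the 10 CPM minimum only in the cells with Kit, so they could not be among the lower genes. Gzmb and Cma1 were higher with Kit too, Gzmb at 360 against 59.2 CPM and Cma1 at 96.8 against 8.52 CPM. So were 7 of 8 eosinophil markers, at a summed 1349 against 549 CPM, and 4 of 6 granulocyte/monocyte progenitor markers, at 15807 against 12515 CPM. Their part in the ratios was not tested.

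Joint classes separated the Kit and the Gzmb divisions. In the 348 cells with Kit but without Gzmb, Mitf had 4.29 CPM (2.62 to 6.62), close to the 3.17 CPM (2.77 to 3.62) of the 5370 cells with neither. Scin had 137 CPM (126 to 148) against 132 CPM (129 to 134) and Id2 39.2 CPM (33.8 to 45.4) against 33.7 CPM (32.3 to 35.1) in the same classes. For these 3 members the intervals overlapped. Hes1 and Ahr were higher with Kit alone, Hes1 at 2.79 CPM (1.48 to 4.77) against 0.925 CPM (0.714 to 1.18) and Ahr at 6.43 CPM (4.34 to 9.18) against 3.17 CPM (2.77 to 3.62), with intervals apart. In the 303 cells with Gzmb but without Kit, all were far higher: Mitf 49.95 CPM, Hes1 53.3 CPM, Ahr 45.5 CPM, Id2 267 CPM and Scin 791 CPM. The 113 cells with both had the highest levels. Mitf reached 83.8 CPM (64.9 to 106), Hes1 85.1 CPM (66.0 to 108), Id2 549 CPM (499 to 603) and Scin 1136 CPM (1063 to 1212). Ahr reached 68.8 CPM (51.8 to 89.5) there, an interval that overlapped the one for Gzmb alone (37.8 to 54.3). Without the 435-cell group, Hes1 had a ratio by Kit detection of 3.31 (1.71 to 5.96), at 2.99 against 0.904 CPM, and Ahr of 2.01 (1.32 to 2.97), at 6.20 against 3.08 CPM. Both then lay under the 10 CPM minimum, and of the members at or above it 0 were at least 2-fold higher. The Scin ratio was 0.999 (0.919 to 1.09) there.

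**Figure D3:**
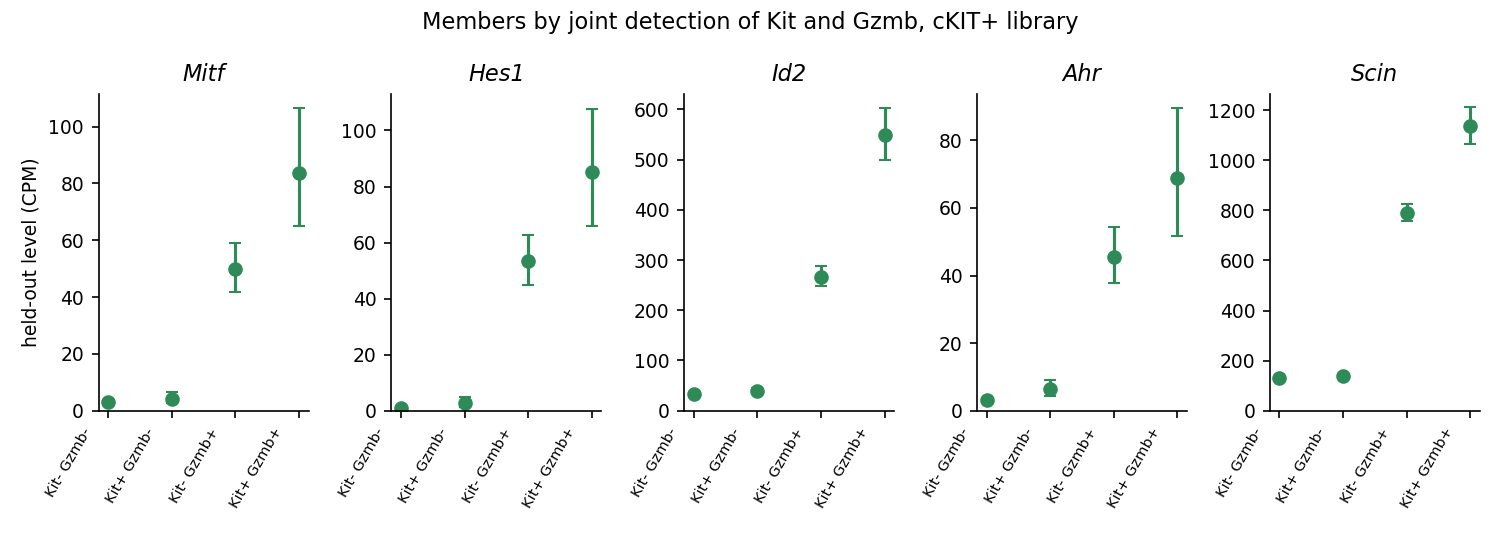
Held-out level in CPM of the 5 members other than Kit in the 4 joint classes of Kit and Gzmb detection, cKIT+ library, each panel with its own linear axis from 0 and 95% exact Poisson intervals. With Kit alone, Scin (137 against 132 CPM), Id2 and Mitf lie near the class with neither, Hes1 (2.79 against 0.925 CPM) and Ahr (6.43 against 3.17 CPM) lie above it, and both classes with Gzmb lie far above (Scin 791 and 1136 CPM).

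Mcpt8, a protease gene that marks basophils and their precursors, divided the members in the opposite direction for all but Scin. It was drawn in 4417 cKIT+ cells and not in 1717, at median depths of 13849.0 and 12013.0 UMIs. Kit was 2.11 times higher in cells without Mcpt8 (1.95 to 2.27), at 57.9 against 27.5 CPM. Hes1 was 3.49 times higher there (2.75 to 4.44), Mitf 2.41 times (1.99 to 2.91), Ahr 1.86 times (1.53 to 2.26) and Id2 1.70 times (1.59 to 1.81). Scin was higher in cells with Mcpt8, at 177 against 134 CPM, a ratio of 1.32 (1.27 to 1.38). Of 7828 genes, 3.37% were at least 2-fold higher and 4.02% at least 2-fold lower in cells with Mcpt8, and of the 3 members that reached 10 CPM Kit was among the lower. Cells without Mcpt8 included other lineages: all 8 neutrophil markers were higher in them, with a summed level of 59980 CPM against 10158 CPM, as were all 7 macrophage markers, at 193 against 35.8 CPM. The part of these lineages in the ratios was not tested.

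Over cells with 0, 1 to 4, 5 to 19, 20 to 49 and 50 or more Mcpt8 UMIs drawn, Kit had 57.9, 53.5, 38.8, 19.6 and 8.59 CPM. Hes1 had 7.59, 6.26, 2.995, 0.663 and 0.377 CPM and Mitf 9.78, 8.87, 4.12, 2.98 and 1.58 CPM, so all 3 were lower in each next class. Ahr had 8.23, 11.2, 4.77, 2.42 and 1.43 CPM and was highest in cells with few Mcpt8 UMIs. Id2 had 67.1, 60.01, 33.6, 32.6 and 37.7 CPM, level over the last 3 classes. Scin stayed within a narrow range, at 134, 155, 182, 191 and 167 CPM, with cells with and without Gzmb counted together. Under the alternatives its ratio by Mcpt8 detection, 1.32 in the main setting, ran from 1.22 to 3.55. With cells with and without Gzmb counted together, Mcpt8 detection thus set Kit and the sparse factors apart from Scin. Mcpt8 stood at 779 CPM in the B cell-like cells of the cKIT+ library, so RNA of other cells can place a cell in the class of 1 to 4 UMIs. The part of such RNA in the Mcpt8 classes was not tested. Cells with Gzmb were 208 of the 1717 cells without Mcpt8. They carried 126 of 166 Hes1, 99 of 180 Ahr and 111 of 214 Mitf held-out UMIs there. Among cells with Mcpt8 they carried 85 of 123, 78 of 250 and 90 of 230. The part of cells with Gzmb in the Mcpt8 differences of Hes1, Ahr and Mitf was not tested.

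**Figure D4:**
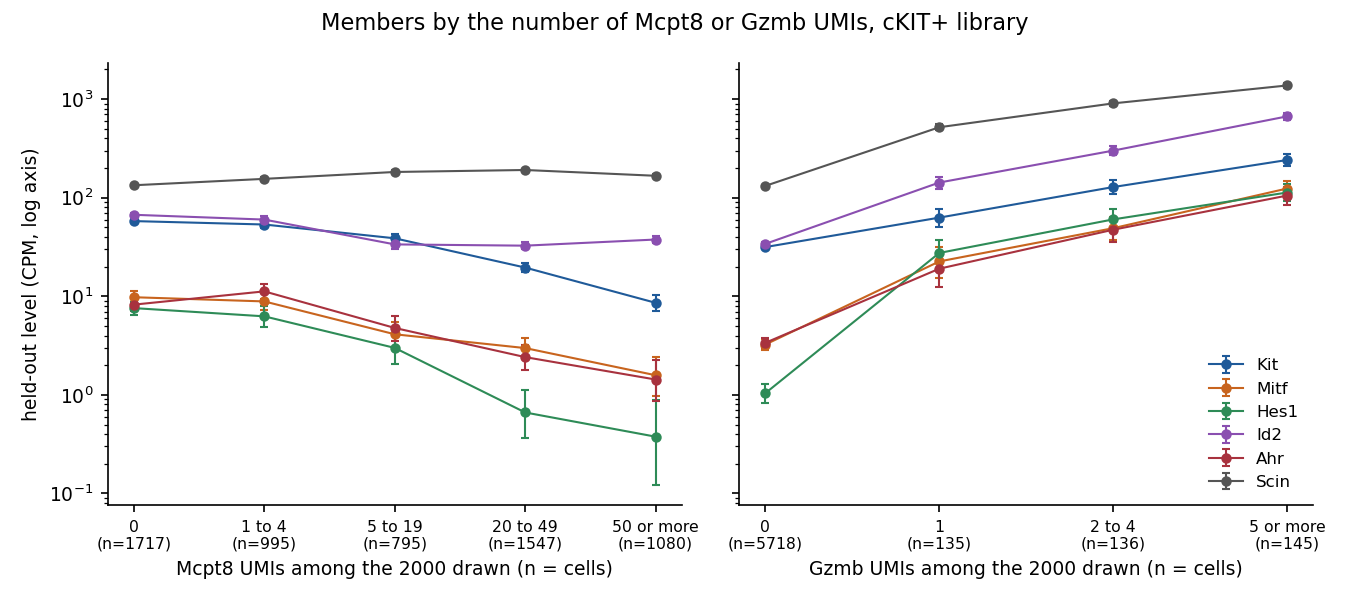
Held-out level of the 6 members in CPM on a log axis, by the number of Mcpt8 UMIs (left) or Gzmb UMIs (right) among 2000 drawn, cKIT+ library, with 95% exact Poisson intervals and the number of cells under each class. Kit goes from 57.9 to 8.59 CPM over the Mcpt8 classes while Scin stays between 134 and 191 CPM, and all 6 members go up over the Gzmb classes.

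Split by Gzmb detection, the small Mcpt8 difference of Scin held opposite ones. Cells with Gzmb, where Scin was higher, were 208 of the 4417 cells with Mcpt8 and 208 of the 1717 without. These unequal shares entered the total too. Among cells with Gzmb, Scin had 630 CPM (596 to 666) in the 208 cells with Mcpt8 and 1197 CPM (1141 to 1254) in the 208 without. Among cells without Gzmb it had 160 CPM (156 to 163) in the 4209 with Mcpt8 and 56.9 CPM (53.7 to 60.3) in the 1509 without. Scin thus ran with Mcpt8 where Gzmb was not drawn and against it where Gzmb was drawn. Kit was higher without Mcpt8 in both, at 163 against 107 CPM in cells with Gzmb and 50.3 against 24.6 CPM in cells without. The cells with Gzmb lay inside and outside the 435-cell group, and those outside it held far more Mcpt8. Inside that group the intervals of Kit and of Scin with and without Mcpt8 overlapped. The part of this mix in the Kit and Scin differences among cells with Gzmb was not tested. Id2 had 311 CPM (287 to 337) with and 359 CPM (329 to 391) without Mcpt8 among cells with Gzmb, with overlapping intervals.

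Clusters of both libraries gave the place of these cells. Of 24 clusters with at least 50 cells, the one with the highest Kit level held 435 cells, all from the cKIT+ library, at a median of 8503.0 UMIs. Its leading genes by fold were Gzmb, Cma1, Atp8b5, Hes1, Atp1b2, Scin, Ahr, Itga4, Kcnc1 and Cx3cr1. Of the 8 mast markers 1 was on, Cma1, and of the 10 basophil markers 5 were on, so it was given no cell type name and is called the Gzmb cluster. A Gzmb UMI was found in 83.9% of its cells and a Cma1 UMI in 23.2%. Since 3 members were among its leading genes and all 6 among the variable genes that made the clusters, its levels are a description. Kit had 171 CPM (158 to 184) there and was found in 71.7% of cells, Scin 1059 CPM (1027 to 1092) in 97.5%, and Id2 365 CPM (346 to 385) in 67.4%. Hes1 had 72.2 CPM (64.0 to 81.2), Ahr 66.2 CPM (58.4 to 74.9) and Mitf 62.4 CPM (54.7 to 70.8), found in 39.5%, 38.9% and 33.3% of cells. The cluster held 71.0% of all Hes1 UMIs, 44.8% of those of Ahr and 41.0% of those of Mitf. Of Scin, Id2 and Kit it held 25.1%, 22.2% and 19.4%, so most of their UMIs lay elsewhere. With the members, Gzmb and Mcpt8 left out of the variable genes the cluster of highest Kit level again held 435 cells, with Kit at 169 CPM and Hes1 at 72.0 CPM.

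The next highest cluster differed between members, and Mitf and Ahr shared it. Kit was next highest in an eosinophil-like cluster led by Epx and Prg2, at 80.3 CPM (66.2 to 96.5), which the Gzmb cluster exceeded 2.13 times (1.74 to 2.62). This eosinophil-like cluster was shallow, at a median of 1882.5 UMIs, so many of its cells were left out of the classes by drawn UMIs. Another eosinophil-like cluster had 66.0 CPM, and a granulocyte/monocyte progenitor-like cluster led by Elane and Prtn3 had 53.9 CPM of Kit and no Hes1 UMI, which allows 0.243 CPM. In the Elane cluster Mitf had 5.18 CPM, with a UMI in 12.3% of cells, Id2 11.2 CPM, Scin 5.50 CPM and Ahr 1.05 CPM. The first eosinophil-like cluster had 9.86 CPM of Mitf, 7.04 CPM of Ahr, 72.6 CPM of Scin and 30.3 CPM of Id2. Mitf had 56.5 CPM (38.7 to 79.8) in the macrophage-like cluster led by C1qa, C1qb and C1qc. The 1.10-fold difference from the Gzmb cluster (0.761 to 1.65) was within counting error. Ahr was next highest in the same macrophage-like cluster, at 37.1 CPM (23.0 to 56.7), a ratio of 1.79 (1.14 to 2.94). Hes1 had 58.1 CPM (41.1 to 79.8) in a B cell-like cluster led by Vpreb3, Ebf1 and Vpreb1, and 12.3 CPM in the B cell-like cluster led by Ighd. The Hes1 ratio of the Gzmb cluster over the first of these was 1.24 (0.883 to 1.79), which does not separate them. Id2 was highest in a dendritic-like cluster, at 400 CPM (355 to 449), where Jchain and Igkc also led, 1.10 times the Gzmb cluster (0.962 to 1.24). Scin had no rival of this kind, with 219 CPM (207 to 232) in the next cluster, a ratio of 4.83 (4.53 to 5.15).

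**Figure D5:**
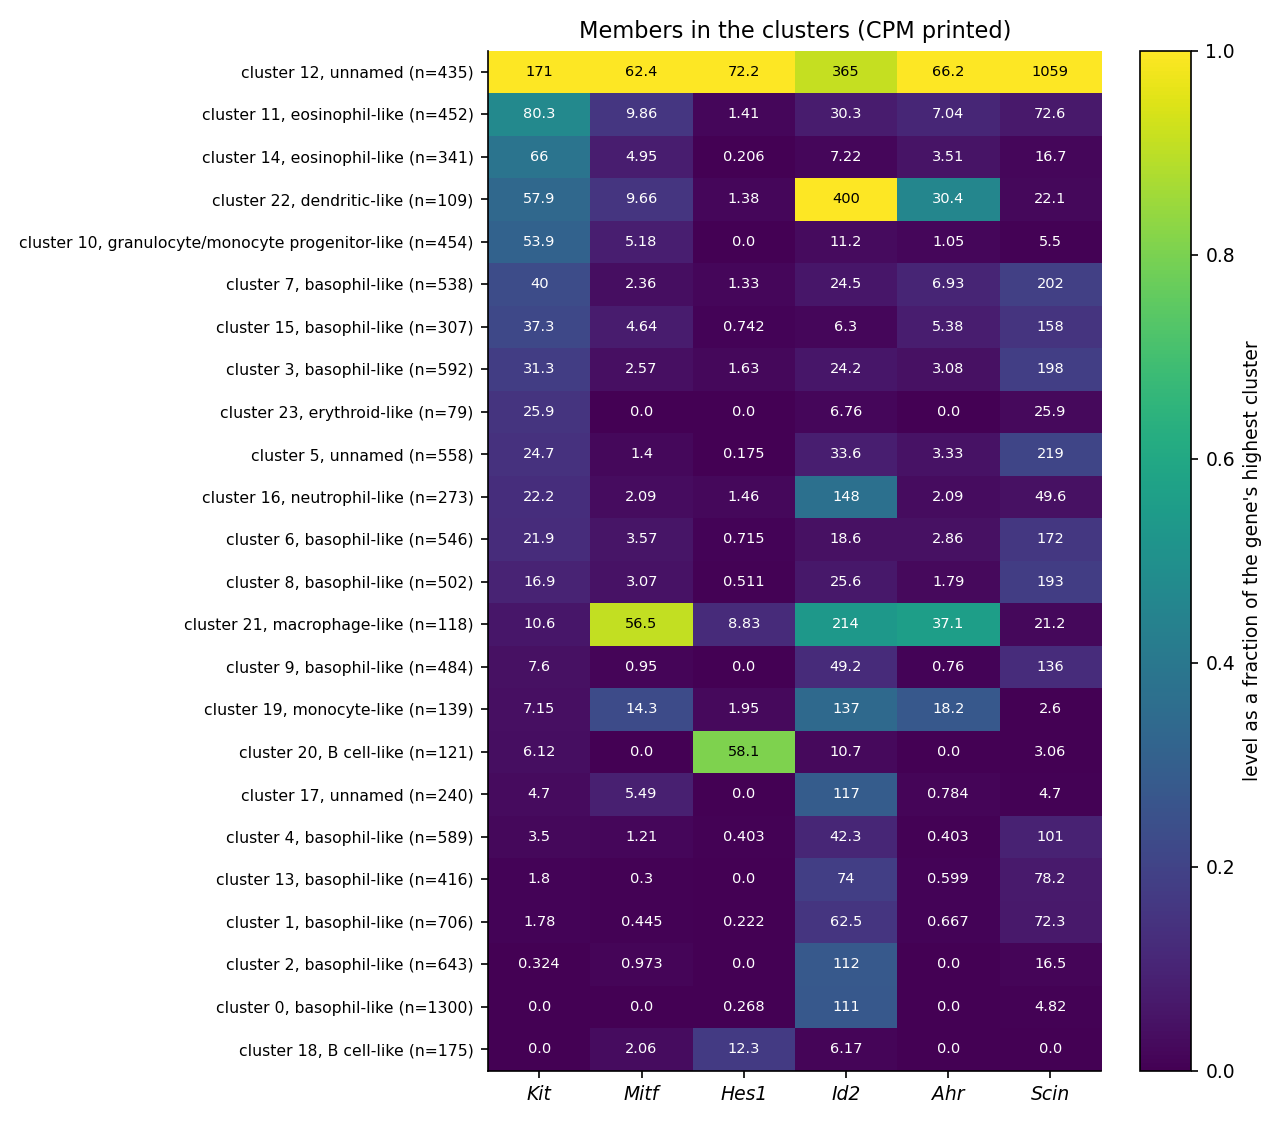
Level of the members in the 24 clusters with at least 50 cells, sorted by Kit; the printed number is the CPM, the colour the level as a fraction of that gene's highest cluster, and n the cells. The Gzmb cluster (cluster 12) is the highest for 5 of the 6 members, Id2 is highest in the dendritic-like cluster at 400 CPM, and Kit and Scin spread over several other clusters.

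Inside the Gzmb cluster, the members differed little by Mcpt8 detection. Kit had 170 CPM (147 to 196) in its 160 cells with Mcpt8 and 163 CPM (145 to 182) in its 275 cells without, and the intervals of Mitf, Hes1, Ahr and Scin overlapped as well. Id2 was the exception, at 414 CPM (377 to 453) with and 297 CPM (272 to 322) without Mcpt8. Over all UMIs 69.0% of the cluster's cells held Mcpt8, so many cells without a drawn Mcpt8 UMI carried it, which limits this comparison. Mcpt8 had 1194 CPM in this cluster, beside 779 CPM in B cell-like and 1549 CPM in macrophage-like cells of the cKIT+ library. Whether the Mcpt8 UMIs of the cluster came from free RNA was not tested. Gzmb still divided the members there. Id2 had 455 CPM (426 to 486) in the 306 cells with a drawn Gzmb UMI and 107 CPM (87.9 to 130) in the 129 without. Mitf had 87.2 CPM (74.8 to 101) and 11.1 CPM (5.56 to 19.9). Scin remained at 691 CPM (640 to 745) in the cells without a drawn Gzmb UMI, against 1230 CPM (1182 to 1279) in those with it. Over all UMIs 83.9% of the cluster's cells held Gzmb, so some of the 129 cells carried it too. Outside the cluster, 110 cells with Gzmb had 20.3 CPM of Hes1 (13.7 to 29.0) against 0.649 CPM (0.478 to 0.860) in 5589 cells without, the largest of the 6 ratios there, whereas Kit had 50.8 CPM (39.996 to 63.7) against 30.4 CPM (29.2 to 31.7). Those 110 cells were deeper than the rest, with a median of 15314.5 UMIs against 14129.0, and held Mcpt8 at 13430 CPM, which the Gzmb cells inside the cluster held at 1414 CPM. The part of doublets in them was not tested.

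Across basophil-like cells the members parted by sort. In basophil-like cells of the cKIT+ library (3397 cells) Kit had 23.9 CPM (22.6 to 25.2) and in those of the cKIT- library (3226 cells) 0.817 CPM (0.476 to 1.31). Scin had 175 and 47.2 CPM, Ahr 3.14 and 0.192 CPM, Mitf 2.65 and 0.673 CPM, and Hes1 0.909 and 0.048 CPM, the last from 1 UMI. Id2 was the reverse, at 27.8 CPM (26.5 to 29.3) and 73.6 CPM (70.0 to 77.4). These levels came from 1501 and 1532 Id2 UMIs, at median depths of 15385 and 4622.5 UMIs per cell. The size of this Id2 difference thus depended on the scale. Different clusters held most of the class in each library, and the largest of the cKIT- library, led by Cd7, Ccl6 and Ccl4 with 1228 of its 1300 cells from that sort, had no UMI of Kit, Mitf or Ahr (which allows 0.803 CPM), 4.82 CPM of Scin and 111 CPM of Id2. Over the 11 basophil-like clusters Id2 ran from 6.30 to 112 CPM, Kit from 0 to 39.96 CPM and Scin from 4.82 to 202 CPM. Id2 was also present in the neutrophil-like cluster, at 148 CPM, and in the monocyte-like cluster, at 137 CPM. In the cKIT- library Gzmb was drawn in 63 cells, with Id2 at 110 against 65.9 CPM, a ratio of 1.67 (1.23 to 2.24). Those 63 cells had 0 held-out UMIs of Mitf and of Hes1, which allows 6.90 CPM. A Mitf UMI was drawn in 1.59% of them. The 365 cells of that library without Mcpt8 had no Scin UMI, which allows 4.26 CPM, whereas the 3121 with Mcpt8 had 857, or 57.4 CPM. Mitf and Ahr lay the other way there, at 8.51 and 12.8 CPM without Mcpt8 against 0.804 and 0.469 CPM with it, from 6 and 9 UMIs in the cells without. Those 365 cells carried markers of other lineages, with summed levels of 95648 against 2362 CPM for neutrophil, 10608 against 161 CPM for B cell, 9897 against 183 CPM for dendritic and 2725 against 79.5 CPM for monocyte markers. The part of these lineages in the Scin, Mitf and Ahr values was not tested.

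The genes whose levels over the 24 clusters were most like a member's were named by Pearson's r of log2(CPM + 5), among 9215 genes. The clusters share 2 libraries and differ in depth, and the genes are not independent, so r is a description. Mitf and Ahr were most like each other (r = 0.91, and 0.86 without the Gzmb cluster), and both had the fractalkine receptor gene Cx3cr1 (0.90 and 0.91) and the protein kinase C gene Prkch (0.85 and 0.91) next. Scin was most like the organic cation transporter gene Slc22a3 (0.96), Gm17590 (0.94) and Ifi204 (0.92). Kit had Nme4 (0.84) and Pdgfrb (0.84) among its 3. Hes1 had Arvcf (0.90), Tubb2b (0.88) and Igf2bp3 (0.87), and Id2 had Pirb (0.84), Dok2 (0.81) and Apobr (0.80). Apart from the pair of Mitf and Ahr, no member was among the 3 genes most like another.

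Genes of the same pathways and families were set beside the members by Gzmb detection. The members had been chosen with this contrast known, so a member that stood above its relatives is a description and no result about the family. Of 25 genes of Kit signalling 23 reached 10 CPM, 6 were at least 2-fold higher with Gzmb and 0 lower, with a median ratio of 1.34 beside 1.09 over all genes counted. Besides Kit these were the adaptor genes Dok2 (101 against 16.5 CPM, ratio 6.13, 5.43 to 6.91) and Lat2 (353 against 138 CPM, ratio 2.56), the phospholipase gene Plcg1 (38.8 against 10.9 CPM, ratio 3.54), the RAS pathway inhibitor gene Spred1 (47.4 against 13.3 CPM, ratio 3.55) and the ubiquitin ligase gene Cblb (25.3 against 9.80 CPM, ratio 2.58). The adaptor gene Grb2 had 267 against 186 CPM, a ratio of 1.43. In the MiT family Mitf alone reached the minimum, and only in cells with Gzmb, at 57.7 against 3.24 CPM. Its relatives Tfe3 and Tfec had 8.90 against 9.22 CPM and 1.72 against 8.46 CPM.

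Of 20 Notch and HES genes 7 reached the minimum, 1 was higher, Hes1, and 0 lower, with a median ratio of 1.10. Hes6 had 69.2 against 58.1 CPM (ratio 1.19) and the protease gene Adam10 49.1 against 51.6 CPM (0.953). Among 7 ID and E protein genes 5 reached the minimum and 2 were higher, Id2 and the E protein gene Tcf12 (79.0 against 37.6 CPM, ratio 2.10, 1.85 to 2.38), with a median of 1.91. Id1, which like Id2 encodes an inhibitor of E proteins, had 43.1 against 84.3 CPM, a ratio of 0.511 (0.432 to 0.601), and Tcf3 had 71.8 against 58.1 CPM (1.24). Of 10 AHR pathway genes 6 reached the minimum and Ahr was the 1 higher, with a median of 1.19. The chaperone genes Hsp90ab1 and Ptges3 had ratios of 0.971 and 0.879. Of 8 gelsolin family genes 5 reached the minimum and Scin was the 1 higher, with a median of 1.28, and its relative Gsn had 58.0 against 59.1 CPM (0.981).

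Mast cell genes differed among themselves. Of 16, 7 reached the minimum, with a median of 1.01. Gzmb, the gene that set the classes, was 1 of these and was higher. Of the 6 others Cma1 was at least 2-fold higher and 0 were at least 2-fold lower. Cma1 had 264 against 3.07 CPM, a ratio of 86.2 (74.5 to 100.05). Few cells carried it: a Cma1 UMI was drawn in 15.1% of the cells with Gzmb (11.8% to 19.0%), and 10 cells held 49.97% of all Cma1 UMIs of the cKIT+ library, 1 of them 152 UMIs. In contrast, Srgn (ratio 1.01) and Cpa3 (1.12), granule genes that basophils express too, differed little. Short of 2-fold, Fcer1a (0.567, 0.527 to 0.609), Hdc (0.700, 0.644 to 0.761) and Ms4a2 (0.867, 0.835 to 0.901) were lower with Gzmb. The tryptase genes Tpsb2 and Tpsab1 and the genes Mcpt1 and Mrgprb1 were at 0 UMIs in cells with Gzmb, which allows 0.862 CPM. They had at most 1 UMI each in the whole cKIT+ library, so these zeros show no contrast. Of the 8 mast markers 4 were higher with Gzmb. Besides Cma1 these were Mcpt2 (1.15 against 0.0534 CPM, ratio 21.5, 4.01 to 116), Mcpt4 and Mrgprb2, from 9, 2 and 1 UMIs in that library. Of 17 factors of the choice between basophil and mast cell fates 16 reached the minimum, 1 was higher and 6 lower, with a median of 0.775. The higher one was Tal1 (72.9 against 26.1 CPM, ratio 2.79, 2.44 to 3.18). The lower ones were Cebpa (112 against 225 CPM, ratio 0.499), which basophil development needs, Cebpb (0.497), Cebpe (0.126), Irf8 (0.0739), Lmo2 (0.405) and Gfi1 (0.327). Gata2 had 832 against 469 CPM (1.77) and Myb 177 against 312 CPM (0.569). Markers of other cell types were for the most part lower in cells with Gzmb: 0 of 7 macrophage markers were higher, at a summed 23.5 against 82.2 CPM, 0 of 6 dendritic markers, at 26.7 against 463 CPM, and 0 of 8 neutrophil markers, at 9205 against 24739 CPM. All 5 early progenitor markers were higher, at a summed 241 against 111 CPM. Without the macrophage-like and dendritic-like clusters, a choice made after seeing the data, the member ratios by Gzmb ran from 4.14 for Kit to 60.6 for Hes1. These classes held 13 and 29 Gzmb UMIs in the cKIT+ library, so leaving them out changed the cells with Gzmb little. The part of other lineages in the ratios was not tested.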

How the data were processed

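Raw counts of UMIs per gene and cell barcode were used as deposited. Per the submitters' processing notes the authors made them with Cell Ranger 3.0.2 and mm10, without normalization. The labels name versions 2 and 3 of the 10x kit, and the paper names version 3. With 1 library per sort, the part of the kit version in the differences by sort was not tested. Following the study, cells in the top or bottom 1% by genes found and the top 1% by UMIs were dropped, leaving 10141 of 10377 cells. Genes found in under 40 cells were left out of this cell filter and of the clustering. Levels and fold counts started from all 31053 gene rows. UMIs were summed per library, class or cluster and scaled to CPM. Classes by detection were set from 2000 UMIs drawn without replacement per cell, and levels were read from the rest. Clusters came from Seurat 5.3.0 in R 4.3.3 (2000 variable genes, 15 principal components, resolution 1). A marker was on where it had 20 CPM and no less than 10% of its maximum over clusters. A class name needed the most markers among the 10 leading genes and at least 3 on, or, for basophil-like, 5 of 10 on with no other class leading. Scrublet in Scanpy 1.11.5 called 292 cKIT+ and 3 cKIT- cells. Doublets were kept, and as an alternative the 320 and 105 kept cells of highest score were left out. edgeR 4.0.16 gave TMM scaling only. Python 3.11.15 and scipy 1.17.1 gave the intervals, and a count of 0 was read as allowing 3 counts. Ratio intervals and calls were tested on simulated counts. The members and all gene and marker lists were chosen with earlier results of these data known. Besides the members, the genes named are the sorting and splitting genes, the markers, from each list the 2 genes of highest cKIT+ level and those past 2-fold by Gzmb detection, and the 3 genes most like each member, of which 1 is not reported here. Alternatives covered the cell filter, doublets, scaling, depth, UMI minimum, random seed, level and fold thresholds and clustering. Coordinates were from GENCODE M21 (GRCm38) and promoters from RefSeq (GRCm38.p6).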

Additional observations from a re-analysis of the deposited data

How the results depend on the processing

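No paired analysis was possible because each sort had 1 library. The alternatives gave 347 values. Only member ratios past 2-fold in the main setting could be counted as turned in direction, and 0 of these were. The Id2 ratio by sort, which was not past 2-fold, turned with UMIs per cell. Of the counts, 74 stayed within 1.5 times and 45 moved, and of the member values 120 stayed within their counting interval and 108 moved. By sort, 2 members, 586 higher and 727 lower genes became 1, 198 and 371 at 50 CPM or more, 5, 2287 and 1675 with 10 UMIs as the minimum, and 1, 132 and 174 at 4-fold; UMIs per cell gave 4723 and 142 genes. Of shares by sort, 5 members higher and 1 lower became 2 and 0 with at least 2 UMIs, and 0 were lower with 1000 UMIs drawn or without thinning. By Kit, 5 members, 32 higher and 34 lower genes became 0 members and 15 higher genes without the cluster of highest Kit level (Hes1, at 3.31-fold, and Ahr, at 2.01-fold, then lay under 10 CPM), 1, 6 and 7 at 4-fold, and 2, 9 and 13 at 50 CPM or more. Higher and lower genes were 57 and 73 with 1000 UMIs drawn and 513 and 309 with at least 2 Kit UMIs, and lower genes were 69 with another random seed, 57 without the cells of highest Scrublet score and 58 with no cell filter. By Gzmb, 519 and 291 genes became 854 and 572 with at least 2 Gzmb UMIs, 131 and 124 without that cluster, 107 and 70 at 4-fold, and 166 and 88 at 50 CPM or more. By Mcpt8, 1 member lower became 3 with 1000 UMIs drawn and 0 with no cell filter or at 4-fold, and 264 and 315 genes became 67 and 148 at 4-fold and 125 and 93 at 50 CPM or more. Fewer or more genes tested and a stricter fold change these counts by construction, and for the others the cause was not tested. The Id2 ratio by sort ran from 0.527 to 1.62, the Scin ratio by Kit from 0.999 to 3.93 and the Scin ratio by Mcpt8 from 1.22 to 3.55. Other ratios by Kit ran from 3.31 to 12.6 for Hes1, 2.01 to 9.80 for Ahr, 1.70 to 6.44 for Mitf and 1.41 to 5.41 for Id2. UMIs per cell, both settings that leave out clusters and the larger cluster minimum were chosen after seeing the data. Few UMIs of Mitf, Hes1 and Ahr in the cKIT- library limit what can be said of them there.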
